A study of Mus musculus with 2 samples.

Results

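Narrow shared regions at single coding genes are short stretches of open chromatin, each at 1 end of 1 protein-coding gene, that were called in both libraries of a Brd9 knockout study in mouse fetal liver. They were chosen by the deposited peak lists themselves. Peaks of both lists that overlapped by at least 1 bp were merged, and a merged region on an autosome was kept when it held peaks of both lists, lay within 1 kb of an end of exactly 1 protein-coding gene, and was less than 1500 bp wide. Of 29076 merged regions, 18023 were autosomal and present in both lists, 7304 of these lay at exactly 1 coding gene, and 6588 of these were below the width limit. The 6588 regions belonged to 6438 genes, which is 31.2% of 20665 autosomal coding genes. A single region was found at 6289 genes, a pair of regions at 148 genes, and 3 regions at Fam120a. Of the 6588, 1123 also lay within 1 kb of a noncoding gene end.

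The assay was ATAC-seq, which maps open chromatin by letting a transposase cut and tag DNA that is not wrapped in nucleosomes. One library came from Vav1-iCre Brd9fl/fl embryos (Brd9KO, replicate 2) and the other from Brd9fl/fl embryos (control, replicate 1), both CD45.2+ on the C57BL/6 strain at stage E14.5 of embryonic development. Fetal liver cells that lacked lineage markers and carried c-Kit, a receptor of blood stem and progenitor cells, were sorted, and 150000 cells went into each library. Both libraries carry the floxed Brd9 alleles, and the iCre recombinase, driven by Vav1 regulatory DNA that is active in blood cells, is in the Brd9KO library alone. The number of embryos behind each library is not given. There is 1 library per genotype, so no test between genotypes was possible, and each difference below is one between these 2 libraries. The intervals given are 95% intervals that cover counting error only and hold no spread between embryos or libraries. The reads carry no molecular identifiers and may include copies of 1 molecule, so the intervals may be too narrow even for counting error. Because the cells were measured in bulk, fewer cells of a type and less open chromatin per cell cannot be told apart.

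A promoter in active or poised use is usually free of nucleosomes over a short stretch around the place where transcription starts, which gives a narrow ATAC-seq peak. Most promoters of genes used in every cell lie in CpG islands, stretches rich in G, C and the CpG dinucleotide, and hold short motifs for widely expressed factors such as NFY at the CCAAT box, SP1 at the GC box, ETS factors, NRF1 and YY1. BRD9 is a bromodomain subunit of non-canonical BAF, one of the chromatin remodelling complexes that use ATP to move or evict nucleosomes. The Brd9 gene itself was not among the narrow regions, because its shared region lay at the ends of several coding genes.

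The number of extended reads over the highest point of each peak, called summit reads, was recovered from the deposited fold and −log10 p-value of each peak. Judged by the lowest backgrounds, the relative depth of Brd9KO to control was 0.640. A scaled ratio is the Brd9KO summit reads over the control summit reads, divided by this depth, so that 1 means equal accessibility at equal depth. The Brd9KO list held 22348 peaks with a median of 28 summit reads, and the control list 25330 peaks with a median of 37.

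The promoter sequences below belong to regions near both ends of the ranking by scaled ratio, and they show how different in sequence the starts of these genes are. Each runs 5′ to 3′ on the gene's own strand, from 150 bases before the RefSeq start to 30 after it, on mm10 (RefSeq GRCm38.p6). Capitals mark matches, on either strand, to 12 short motifs, which are spelled out with their shares further on. Matches of different motifs may share bases and each was counted. The starts of Kcnn4, Snrnp35, Sec13 and Herpud1 belong to regions with lower scaled ratios, and the other 6 to regions with higher ones.
Kcnn4, chr7:24370113-24370292, plus strand: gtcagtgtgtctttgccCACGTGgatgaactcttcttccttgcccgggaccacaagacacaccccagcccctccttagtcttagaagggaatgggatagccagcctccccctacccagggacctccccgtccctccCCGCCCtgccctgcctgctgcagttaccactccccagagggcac
Lyplal1, chr1:186117281-186117460, minus strand: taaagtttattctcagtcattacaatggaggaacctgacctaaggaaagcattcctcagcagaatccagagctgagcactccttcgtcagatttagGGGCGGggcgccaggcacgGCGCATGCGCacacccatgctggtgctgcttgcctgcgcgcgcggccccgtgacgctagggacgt
Snrnp35, chr5:124483005-124483184, plus strand: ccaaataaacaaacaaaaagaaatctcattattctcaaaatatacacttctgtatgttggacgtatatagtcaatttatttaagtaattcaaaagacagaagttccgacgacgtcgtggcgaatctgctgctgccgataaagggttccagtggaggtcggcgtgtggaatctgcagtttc
Sec13, chr6:113740652-113740831, minus strand: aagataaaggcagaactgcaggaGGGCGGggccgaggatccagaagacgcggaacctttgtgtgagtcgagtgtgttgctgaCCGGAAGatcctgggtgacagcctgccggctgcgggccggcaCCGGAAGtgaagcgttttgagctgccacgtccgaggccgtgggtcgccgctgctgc
Wiz, chr17:32389377-32389556, minus strand: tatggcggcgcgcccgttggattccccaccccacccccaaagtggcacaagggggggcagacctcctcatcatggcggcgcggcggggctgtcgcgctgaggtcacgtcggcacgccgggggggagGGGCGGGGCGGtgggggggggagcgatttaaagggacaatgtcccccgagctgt
Prkcq, chr2:11172232-11172411, plus strand: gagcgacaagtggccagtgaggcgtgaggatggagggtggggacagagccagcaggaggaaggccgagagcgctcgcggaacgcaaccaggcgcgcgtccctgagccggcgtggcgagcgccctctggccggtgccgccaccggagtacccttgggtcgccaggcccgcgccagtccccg
Ptafr, chr4:132563917-132564096, plus strand: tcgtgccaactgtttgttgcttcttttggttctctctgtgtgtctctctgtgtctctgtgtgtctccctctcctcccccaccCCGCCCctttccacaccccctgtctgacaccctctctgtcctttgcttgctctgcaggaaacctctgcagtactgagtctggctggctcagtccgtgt
Ehmt1, chr2:24919580-24919759, minus strand: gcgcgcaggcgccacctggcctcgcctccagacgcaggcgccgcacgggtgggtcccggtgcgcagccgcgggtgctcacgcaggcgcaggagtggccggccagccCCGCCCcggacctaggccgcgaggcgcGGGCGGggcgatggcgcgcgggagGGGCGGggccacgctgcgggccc
Spef2, chr15:9748839-9749018, minus strand: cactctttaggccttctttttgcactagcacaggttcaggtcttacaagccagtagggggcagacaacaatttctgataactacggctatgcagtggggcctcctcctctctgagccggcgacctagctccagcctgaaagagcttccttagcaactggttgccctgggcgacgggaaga
Herpud1, chr8:94386279-94386458, plus strand: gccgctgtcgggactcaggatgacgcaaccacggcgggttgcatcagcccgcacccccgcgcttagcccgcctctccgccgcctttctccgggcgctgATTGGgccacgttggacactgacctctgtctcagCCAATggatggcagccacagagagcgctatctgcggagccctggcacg
The 10 stretches held between 0 and 3 matches, which are descriptions of letters and not of bound factors. Snrnp35, Prkcq and Spef2 had 0 matches in the stretch shown, and Lyplal1, Sec13 and Ehmt1 had 3 each. Herpud1 carried a pair of CCAAT boxes in opposite orientations, Sec13 a pair of ETS sites, and Lyplal1 overlapping NRF1 sites on both strands, which read as 1 run of capitals.

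In width, the narrow regions spanned 403 to 1499 bp, with a median of 972 bp and quartiles of 804 and 1139 bp. The peak inside a region had a median width of 826 bp in the Brd9KO list and 914 bp in the control list. The Brd9KO peak was the narrower one at 4701 regions (71.4%) and the wider one at 1858 (28.2%), with a median width ratio of 0.929 (quartiles 0.812 and 1.01). The shallower library had the narrower peaks, and the part of depth in this was not tested. Widths over the regions agreed in rank between the libraries with a Spearman rho of 0.69 (n = 6588 regions, all from the same pair of libraries). Among regions with 50 or more summit reads in both lists, the relatively narrowest Brd9KO peaks lay at Ppp2ca, a catalytic subunit of protein phosphatase 2A, with 520 bp in Brd9KO against 1459 bp in control, at Brpf3 with 458 bp in Brd9KO against 1265 bp in control, at Ap1ar with 381 bp in Brd9KO against 981 bp in control, and at Lrrc8d with 530 bp in Brd9KO against 1334 bp in control. The relatively widest lay at Ttll4 with 1038 bp in Brd9KO against 510 bp in control, at Fam241a with 1111 bp in Brd9KO against 586 bp in control, at Runx3, a RUNX factor of lymphocytes, with 986 bp in Brd9KO against 542 bp in control, and at Rnf130 with 1036 bp in Brd9KO against 575 bp in control.

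The narrowest region was the one at Lars2, the mitochondrial leucyl-tRNA synthetase, at 403 bp, followed by those at 2310009B15Rik (408 bp), Mtx3 (411 bp), Btbd2 (421 bp) and Map6 (424 bp). Just inside the width limit, Agpat4 (1499 bp) had 43 summit reads in Brd9KO and 84 in control, Taco1 (1498 bp) had 46 in Brd9KO and 100 in control, and Acaa2 (1497 bp), an enzyme of mitochondrial fatty acid oxidation, had 237 in Brd9KO and 343 in control. Just outside it, at 1500 bp each, Rps6ka4 had 11 in Brd9KO and 21 in control. E2f8, an E2F factor of the cell cycle, had 216 in Brd9KO and 333 in control, and Fut8 had 119 in Brd9KO and 165 in control.

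Accessibility ranged widely among the narrow regions. Summit reads ran from 6 to 1304 in Brd9KO, with a median of 61 and quartiles of 29 and 122, and from 7 to 1573 in control, with a median of 98 and quartiles of 46 and 191. The medians exceeded those of shared autosomal regions away from gene ends, which were 21 in Brd9KO and 35 in control, and those of regions at the ends of noncoding genes alone, which were 31 in Brd9KO and 51 in control. They were below the medians of regions at the ends of several coding genes, 96 in Brd9KO and 153 in control, and close to those of the 716 wide regions at single coding genes, 69.5 in Brd9KO and 115 in control. Width and accessibility were only loosely tied, with a Spearman rho of 0.25 over the 6588 regions. Median reads were 24 in Brd9KO and 37 in control at the 325 regions under 600 bp, 39 in Brd9KO and 62 in control at the 1280 regions from there to 800 bp, 64 in Brd9KO and 102 in control at the 2006 regions up to 1000 bp, 77 in Brd9KO and 123 in control at the next 2072 in width, and 74 in Brd9KO and 122 in control at the 905 widest.

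The region with the most summit reads was the Lars2 one (chr9:123461791-123462193), with 1304 in Brd9KO and 1573 in control and a scaled ratio of 1.29 (1.20 to 1.39). It lay at the far end of the gene, 95080 bp downstream of the start, and was also the narrowest region, at 403 bp. Far-end regions had medians of 24 reads in Brd9KO and 37.5 in control. The treatment of reads that map to several places is not stated, and their part in the Lars2 count was not tested. The next 5 were all at gene starts. Sp1, the GC-box factor, had 1051 reads in Brd9KO and 1440 in control (scaled ratio 1.14, 1.05 to 1.24). Dnpep, an aspartyl aminopeptidase, had 929 in Brd9KO and 1274 in control (1.14, 1.05 to 1.24). Cic, a transcriptional repressor, had 890 in Brd9KO and 1233 in control (1.13, 1.03 to 1.23). Gsk3b, a kinase of the Wnt pathway, had 799 in Brd9KO and 1230 in control (1.01, 0.927 to 1.11). Rab40c had 905 in Brd9KO and 1064 in control (1.33, 1.21 to 1.45).

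**Figure D1:**
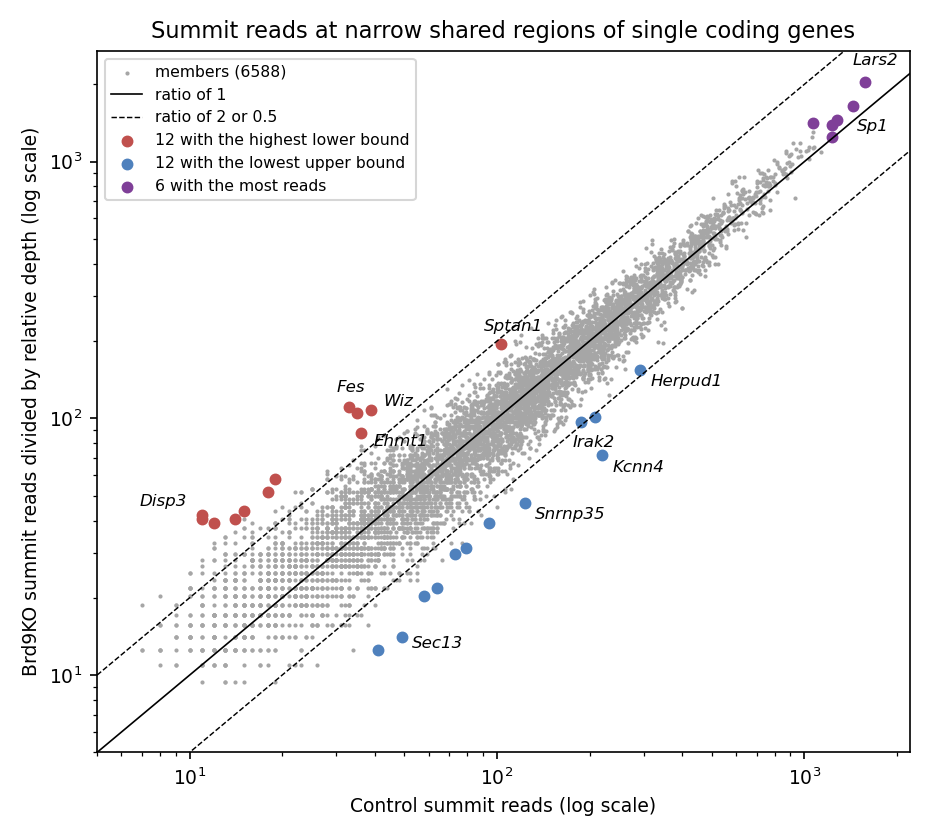
Summit reads of the 6588 narrow regions: Brd9KO reads divided by the relative depth (y, log scale) against control reads (x, log scale); each point is 1 region, the solid line a scaled ratio of 1 and the dashed lines ratios of 2 and 0.5. Points widen around the line toward low reads, and past the dashed lines no region has more than 219 control reads.

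Both summits sat close to the annotated start of transcription. A start was available in the RefSeq promoter table for the genes of 5301 narrow regions (80.5%), and 4888 of these (92.2%) lay at a start, 278 (5.24%) at the far end of the gene and 135 (2.55%) at another outer end. At the 4888 starts, the median distance of the summit was −3 bp in Brd9KO (quartiles −108 and 89.0 bp, negative upstream) and 3 bp in control (−105 and 82.0 bp). Within 100 bp of the start lay 2443 Brd9KO and 2565 control summits, and within 250 bp lay 4033 Brd9KO (82.5%) and 4100 control (83.9%) summits. The start nearest the control summit was used for both libraries, which favours the control summit where a gene has more than 1 start. The 524 wide regions at starts had fewer summits within 250 bp, 62.8% in Brd9KO and 61.6% in control. A region counted as at a start when it lay within 1 kb of the start nearest the control summit. Distances were therefore limited in advance. The outermost start of a gene is also 1 end of its span, and the rule asked for at most 1 kb from such an end. A narrow region also leaves less room for a distant summit than a wide one.

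**Figure D2:**
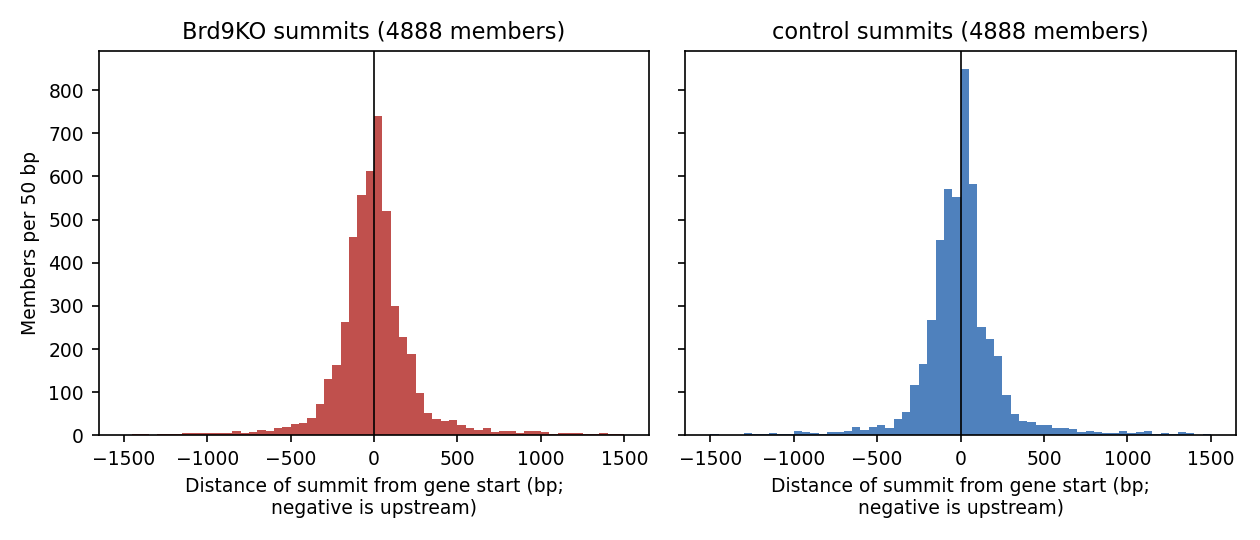
Distance of the summit from the RefSeq gene start (x, bp, negative upstream) for the 4888 narrow regions at a start, in Brd9KO (left) and control (right); bars count regions per 50 bp (y). Both libraries peak at the start, with medians of −3 bp in Brd9KO and 3 bp in control.

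Summits of the 2 libraries lay a median of 39 bp apart (quartiles 8.75 and 90.0 bp), within 50 bp of each other at 3771 regions (57.2%), on the same base at 336 (5.10%), and more than 200 bp apart at 460 (6.98%). Among wide regions 146 (20.4%) had summits more than 200 bp apart. The gap was a median of 90 bp in the 1318 narrow regions with the fewest reads and 17 bp in the 1318 with the most. The farthest gaps were at the far end of Kcnk12 (1115 bp, with 12 reads in Brd9KO and 13 in control), and at Cdk9 (1064 bp, 102 in Brd9KO and 151 in control), Hes1 (946 bp, 28 in Brd9KO and 44 in control) and Fosl1 (911 bp, 12 in Brd9KO and 19 in control). Cdk9, the kinase of elongation factor P-TEFb, was the 1 region of the 4 with more than 50 reads in each library, and its scaled ratio was 1.05 (0.812 to 1.37).

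Regions at the far end of a gene were less accessible than those at a start. The 278 far-end regions had medians of 24 reads in Brd9KO and 37.5 in control, against 67 in Brd9KO and 108 in control at the 4888 starts. The median scaled ratio at far ends was 0.01 on the log2 scale. Fam120a showed both kinds in 1 gene, with 72 reads in Brd9KO and 111 in control at its far end (scaled ratio 1.01), and 40 in Brd9KO and 46 in control (1.36) and 76 in Brd9KO and 122 in control (0.973) in separate regions beside its start.

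Sequence around the starts was CpG-rich. In the 300 bases from 250 before to 50 after the start, the 4873 distinct promoters of narrow regions had a median G and C content of 62.0% and a median CpG observed-to-expected ratio of 0.794. A total of 3788 (77.7%) met the limits used for CpG-rich sequence, an observed-to-expected ratio of at least 0.6 with at least 50% G and C. Among all 20085 coding autosomal promoters of the table the medians were 57.0% and 0.586, and 46.5% were CpG-rich. The 524 promoters of wide regions resembled the narrow ones, with 63.7%, 0.822 and 78.4%. CpG-rich shares were 71.7% and 70.1% in the narrowest pair of width groups and between 78.6% and 81.1% in the 3 wider groups.

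The motifs of broadly used promoters were more frequent at narrow regions than over all coding promoters, which include them, and the TATA box, AP-1, RUNX and GATA sites were less frequent. A GC box (GGGCGG) was found in 71.6% of narrow promoters, against 47.0% of all coding promoters and 35.7% of all 32851 promoters in the table. The ETS site (CCGGAAG) was in 19.4% against 11.9% of coding and 8.86% of all promoters, the E-box (CACGTG) in 11.5% against 7.89% and 7.15%, and the NRF1 site (GCGCATGC) in 6.73% against 3.55% and 2.71%. The YY1 site (AAGATGGCG) was in 3.43% against 1.83% and 1.40%, the CRE (TGACGTCA) in 4.10% against 2.30% and 1.79%, and the short CRE (TGACGTG) in 3.16% against 2.17% and 2.01%. The CCAAT box (CCAAT) differed little, with 40.5% against 38.1% and 37.4%. A TATA box (TATAAA) was in 6.16% of narrow promoters against 12.7% and 13.6%, the AP-1 site (TGANTCA) in 3.94% against 7.06% and 7.81%, the RUNX site (TGTGGTT) in 3.57% against 4.77% and 5.27%, and the GATA site (AGATAAG), the motif of the blood factors GATA1 and GATA2, in 1.76% against 2.58% and 3.04%. GC-rich motifs are more frequent in GC-rich sequence of any kind, and the part of base composition in these differences was not tested. Wide regions had the GC box in 74.0%, the YY1 site in 3.44%, the NRF1 site in 6.49%, the CCAAT box in 34.2% and the ETS site in 15.1%.

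Several motifs had a preferred place relative to the start of narrow promoters. Counted in steps of 25 bases, the CCAAT box was densest from 75 to 50 bases before the start, with 11 matches per 100 promoters. The GC box (27.3 per 100), ETS site (5.05, nearly matched by 5.01 in the first 25 after it) and NRF1 site (2.15) were densest in the last 25 bases before the start, the TATA box (1.05, nearly matched by 1.03 in the step farthest upstream) from 50 to 25 bases before it, and the YY1 site (1.37) from 25 to 50 bases after it. Over all coding promoters, the CCAAT box (8.37 per 100), ETS site (2.84), NRF1 site (1.06) and TATA box (3.35) were densest in the same steps. The GC box was densest there from 50 to 25 bases before the start (16.2), and the YY1 site had 0.563 in either step after it. At wide promoters the CCAAT box, ETS site and TATA box also kept these steps, and the NRF1 site did not. The shared places are therefore not particular to narrow regions.

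**Figure D3:**
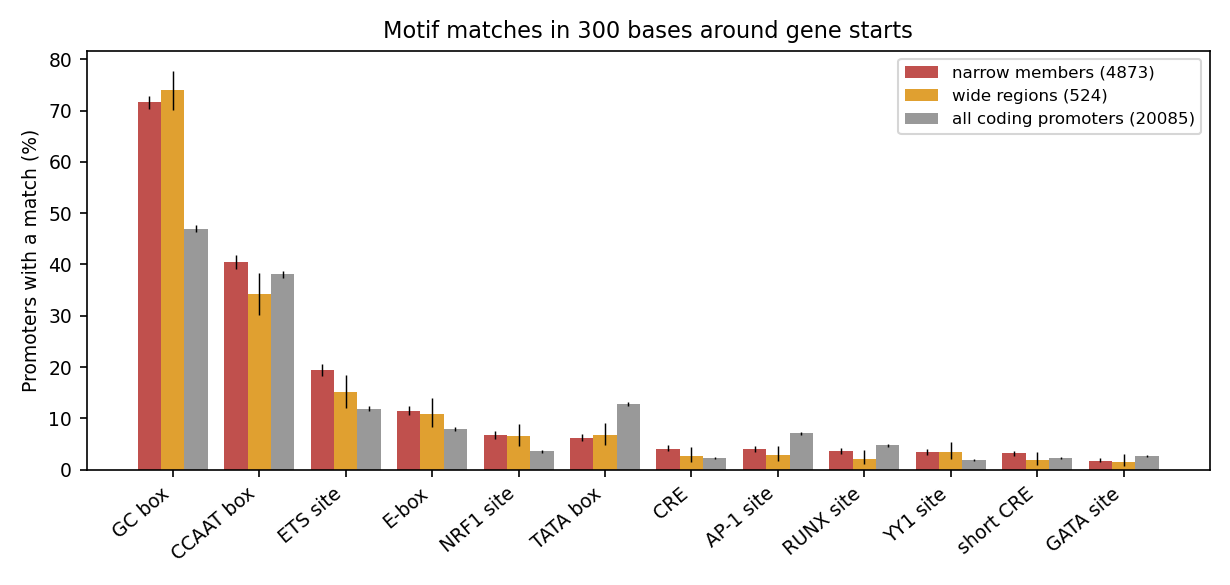
Percent of promoters (y) that hold a match to each of 12 motifs (x) in 300 bases around the start, for 4873 narrow regions, 524 wide regions and 20085 coding promoters; lines are 95% exact binomial intervals. The GC box stands at 71.6% in narrow regions against 47.0% of coding promoters, and the TATA box at 6.16% against 12.7%.

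Accessibility followed sequence class in both libraries. The 3801 narrow regions at CpG-rich starts had medians of 78 reads in Brd9KO and 123 in control, and the 1087 at CpG-poor starts had 38 in Brd9KO and 64 in control. Regions with a CCAAT box had 83 in Brd9KO and 132 in control, against 60 in Brd9KO and 96 in control without one. With a GC box the medians were 76 in Brd9KO and 120 in control, against 51 in Brd9KO and 84 in control without. With a TATA box they were 55 in Brd9KO and 96.5 in control, against 68 in Brd9KO and 110 in control without. The ratio between libraries moved little with these classes, with median log2 scaled ratios of 0.03 at CpG-rich and −0.01 at CpG-poor starts, and of 0.04 with and −0.02 without a GC box.

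Between the libraries the narrow regions kept nearly the same accessibility. The rule asked for a peak in both lists, so regions with a peak in 1 list alone could not enter. The median log2 scaled ratio was 0.02 (a ratio of 1.02), against 0.00 over all shared autosomal regions, −0.04 at wide regions, 0.00 at the ends of several coding genes, 0.04 at the ends of noncoding genes alone and −0.05 away from gene ends. Summit reads of the libraries had a Spearman rho of 0.97 and a Pearson r of 0.96 on the log2 scale across the 6588 regions, which are not independent replicates. Log2 ratios had an SD of 0.38, of which counting error alone would give 0.30. The corresponding SD was 0.38 at wide regions, where counting would give 0.27, and 0.46 over all shared autosomal regions, where it would give 0.36.

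Large ratios were rare. A scaled ratio of 2 or more was found at 83 narrow regions (1.26%), where the share over all shared autosomal regions was 2.4%, and a ratio of 0.5 or less at 40 (0.607%), where that share was 2.0%. The interval lay above 1 at 565 narrow regions (8.58%, against 7.46% of all) and below 1 at 437 (6.63%, against 8.52% of all). These shares are descriptions, because the same peaks chose the regions. By the ratio of the deposited folds, which divide summit reads by the local background, 4 narrow regions reached 2 or more and 10 lay at 0.5 or less. Of the 83 high regions, 69 had an interval above 1, and of the 40 low ones, 36 had an interval below 1.

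Regions at both extremes were mostly weak. The 83 high ones had 12 to 71 reads in Brd9KO (median 24.0) and 7 to 41 in control (median 15). The 40 low ones had 6 to 65 reads in Brd9KO (median 15.5) and 19 to 219 in control (median 55). A region needed a peak in both lists to be included, so a low region that 1 list missed could not show its ratio here. CpG-poor starts made up 29 of 55 high regions with a start (52.7%) and 15 of 26 low ones (57.7%), against 1087 of 4888 of all narrow regions (22.2%). CpG-poor starts also had fewer reads, with medians of 38 in Brd9KO and 64 in control, against 78 and 123 at CpG-rich starts. The part of low reads in these CpG-poor shares was not tested. Of 5 groups of near-equal size by accessibility, the lowest held 69 of the 83 high and 24 of the 40 low regions, and the highest held none of either. In the highest group, with medians of 213 reads in Brd9KO and 324 in control, the median log2 ratio was 0.07, the SD 0.21 where counting would give 0.13, and the interval lay above 1 at 256 regions (19.4%) and below 1 at 96 (7.28%).

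The local background moved with the summit. The background that the authors' peak caller assigned to each peak had a median of 4.66 reads in Brd9KO and 7.88 in control, a median scaled background ratio of 0.955 (quartiles 0.843 and 1.07). Over the 6588 regions the scaled ratio of backgrounds and that of summit reads had a Spearman rho of 0.74. Both come from the same libraries, and the reads of a peak can count toward the background around it. The background was higher in Brd9KO at 80 of the 83 high regions, with a median ratio of 1.37, and lower in Brd9KO at 40 of the 40 low regions, with a median of 0.605. Dividing by the background therefore brings ratios nearer to 1.

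**Figure D4:**
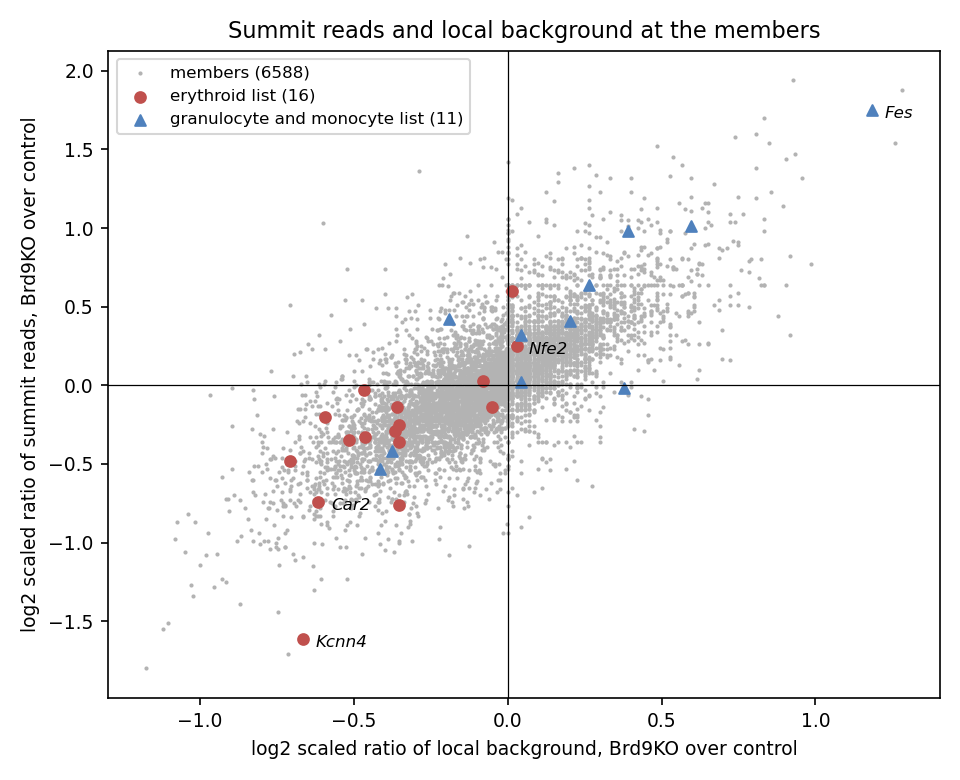
Log2 scaled ratio of summit reads (y) against log2 scaled ratio of the local background (x), Brd9KO over control, for the 6588 narrow regions (small points), the 16 regions of the erythroid list (circles) and the 11 of the granulocyte and monocyte list (triangles). Summit and background ratios climb together, Fes lies at the upper right, and Kcnn4 and Car2 lie at the lower left with most erythroid regions.

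The 12 regions whose intervals lay highest were picked for their ratios, so their values are a description. Fes (chr7:80386389-80387337), a tyrosine kinase of myeloid cells, had 71 reads in Brd9KO and 33 in control, a scaled ratio of 3.36 (2.19 to 5.24), and a background ratio of 2.27. The Fes summits lay 1232 bp downstream of the start in Brd9KO and 1242 bp downstream in control. Lyplal1, a lysophospholipase-like enzyme whose NRF1 sites are shown above, had 67 in Brd9KO and 35 in control (2.99, 1.96 to 4.64). Wiz had 69 in Brd9KO and 39 in control (2.76, 1.84 to 4.20). Ehmt1 had 56 in Brd9KO and 36 in control (2.43, 1.57 to 3.80). WIZ is a zinc-finger partner of the histone H3 lysine methyltransferases GLP, which Ehmt1 encodes, and G9a. Sptan1, the non-erythroid alpha spectrin, was the most accessible of the 12, with 125 in Brd9KO and 103 in control (1.90, 1.45 to 2.48).

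Among the rest of the 12, Prkcq, a protein kinase C of T cells, had 37 reads in Brd9KO and 19 in control (3.04, 1.70 to 5.6). Ptafr, the receptor of platelet-activating factor, had 25 in Brd9KO and 12 in control (3.25, 1.58 to 7.11). Itgb3, an integrin subunit of megakaryocytes and platelets, had 28 in Brd9KO and 15 in control (2.92, 1.5 to 5.87). The other 4 were Disp3 with 27 in Brd9KO and 11 in control (3.83, 1.84 to 8.56), Gabbr1, a GABA receptor subunit, with 26 in Brd9KO and 11 in control (3.69, 1.76 to 8.28), Spef2, a sperm flagellar protein, with 33 in Brd9KO and 18 in control (2.86, 1.57 to 5.4), and Ociad2 with 26 in Brd9KO and 14 in control (2.90, 1.46 to 6.01). Their background ratios lay between 1.40 at Spef2 and 2.43 at Gabbr1. By the deposited folds the 12 had ratios from 1.15 at Sptan1 to 2.06 at Disp3, all above 1.

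The 12 regions whose intervals lay lowest were led by Kcnn4 (chr7:24369825-24370466), the calcium-activated potassium channel of red cells. Its start had 46 reads in Brd9KO and 219 in control, a scaled ratio of 0.328 (0.233 to 0.453). A second narrow region at the far end of Kcnn4 (chr7:24383582-24385069) had 35 in Brd9KO and 56 in control, with a ratio of 0.976 (0.621 to 1.52). Another red cell gene in this group was Ackr1, the Duffy blood group receptor, with 19 in Brd9KO and 73 in control (0.406, 0.232 to 0.681). Snrnp35, a protein of the minor spliceosome, had 30 in Brd9KO and 123 in control (0.381, 0.247 to 0.572). Sec13, a subunit of COPII vesicle coats and of the nuclear pore, had 9 in Brd9KO and 49 in control (0.287, 0.124 to 0.590), the smallest ratio of all narrow regions.

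Herpud1, which acts in the degradation of endoplasmic reticulum proteins, had 99 reads in Brd9KO and 292 in control (0.529, 0.417 to 0.667). Irak2, a kinase of interleukin-1 signalling, had 62 in Brd9KO and 188 in control (0.515, 0.380 to 0.690). Apbb1ip, an adaptor between the GTPase Rap1 and integrins, had 13 in Brd9KO and 58 in control (0.350, 0.176 to 0.646). Slc30a10, a manganese exporter, had 65 in Brd9KO and 208 in control (0.488, 0.364 to 0.648) at its far end. The rest were Evi5 with 14 in Brd9KO and 64 in control (0.342, 0.177 to 0.616), Cldn13, a claudin, with 25 in Brd9KO and 94 in control (0.415, 0.256 to 0.651), Ulk4 with 20 in Brd9KO and 79 in control (0.395, 0.229 to 0.652), and Aoc3, an amine oxidase, with 8 in Brd9KO and 41 in control (0.305, 0.123 to 0.658). The regions of Apbb1ip, Evi5 and Ulk4 lay at an outer end of the gene where the promoter table holds no start. Background ratios of the 12 lay between 0.443 at Sec13 and 0.685 at Slc30a10. By the deposited folds their ratios ran from 0.396 at Aoc3 to 0.823 at Herpud1, all below 1, with 0.509 at Kcnn4.

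Neighbouring narrow regions did not as a rule move with these extremes. Within 200 kb of the 12 low regions there were 33 other narrow regions, 15 with a ratio above 1 and 18 below, and within 200 kb of the 12 high ones there were 36, with 17 above and 19 below. A stretch of chromosome 6 held a pair of the low ones, Irak2 (chr6:113638330-113639115) and Sec13 (chr6:113740267-113741055), 101151 bp apart. The 3 other narrow regions within 200 kb of both of them, chosen after their values were seen, were also below 1. Brk1 had 41 reads in Brd9KO and 88 in control (0.728, 0.490 to 1.07). Vhl, a ubiquitin ligase subunit, had 28 in Brd9KO and 60 in control (0.729, 0.448 to 1.16). Tatdn2 had 259 in Brd9KO and 488 in control (0.829, 0.710 to 0.966). Within 200 kb of Irak2 alone lay Jagn1 with 54 in Brd9KO and 79 in control (1.07, 0.741 to 1.53) and Il17re with 32 in Brd9KO and 51 in control (0.980, 0.609 to 1.55). The 3 neighbours of Snrnp35 were also below 1, between 0.923 at Tmed2 and 0.980 at Rilpl2, each with an interval that held 1.

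Genes used in every cell were described by lists, chosen with earlier results of these data known, so their counts and medians are descriptions. The lists give medians beside 0.02 for all narrow regions and 0.00 for all shared autosomal regions, and intervals beside 8.58% above 1 and 6.63% below 1 over all narrow regions. Most genes named from the lists were picked for their reads. In the most accessible 1318 narrow regions the interval lay above 1 at 19.4% and below 1 at 7.28%, with a median of 0.07. Of 75 cytosolic ribosomal protein genes, 48 had 54 narrow regions, 26 above a ratio of 1 and 28 below, with a median log2 ratio of −0.02 and medians of 78.5 reads in Brd9KO and 128 in control. Their interval lay above 1 at 7 regions and below 1 at 5. Rps19, the small-subunit protein mutated in Diamond-Blackfan anaemia, had 463 in Brd9KO and 670 in control (1.08, 0.957 to 1.22). Rps29 had 480 in Brd9KO and 566 in control (1.32, 1.17 to 1.5). Rpl13a had 260 in Brd9KO and 466 in control (0.871, 0.746 to 1.02). Ribosomal protein genes have many processed copies in the genome, and the treatment of reads that map to several places is not stated.

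Lists for gene expression and genome upkeep lay near 0 as well, with medians between −0.03 and 0.02 for these and the ribosomal list by the deposited folds. Of 37 aminoacyl-tRNA synthetase genes, 22 had 23 narrow regions, 10 above and 13 below, with a median of −0.03. Mars1, for methionine, had 122 reads in Brd9KO and 238 in control (0.801, 0.638 to 1.0). Dars, for aspartate, had 139 in Brd9KO and 233 in control (0.932). Tars, for threonine, had 137 in Brd9KO and 209 in control (1.02). Of 30 Mediator genes, 20 had 20 regions, 10 above and 10 below, with a median of −0.01, and Med26 had 204 in Brd9KO and 286 in control (1.11). Med6 had 104 in Brd9KO and 198 in control (0.820). General transcription factors and RNA polymerase II subunits had 27 regions, 13 above and 14 below, at 26 of 42 genes, with a median of −0.01, Gtf2f1 at 159 in Brd9KO and 262 in control (0.948) and Taf15 at 169 in Brd9KO and 230 in control (1.15). DNA repair genes had 23 regions, 8 above and 15 below, at 23 of 50 genes, with a median of −0.07. Among these Blm, the Bloom syndrome helicase, had 271 in Brd9KO and 512 in control (0.827, 0.711 to 0.960). Nbn, of the MRN complex, had 229 in Brd9KO and 262 in control (1.36, 1.14 to 1.64). Ogg1, which removes oxidised guanine, had 296 in Brd9KO and 463 in control (0.998, 0.860 to 1.16).

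Protein turnover, transport and metabolism gave medians between −0.07 and 0.12, and between −0.01 and 0.06 by the deposited folds. Autophagy and lysosome genes had 26 regions, 15 above and 11 below, at 25 of 39 genes, with a median of 0.12. Wipi1, which binds the lipid of early autophagosomes, had 692 reads in Brd9KO and 871 in control (1.24, 1.12 to 1.37). Ulk1, the kinase that starts autophagy, had 191 in Brd9KO and 298 in control (1.0, 0.830 to 1.20). Vesicle coat genes had 25 regions, 10 above and 15 below, at 25 of 37 genes, with a median of −0.07. Ap1m1, an adaptor subunit of clathrin coats, had 291 in Brd9KO and 342 in control (1.33, 1.13 to 1.56). Sar1a, the GTPase that starts COPII coats, had 126 in Brd9KO and 267 in control (0.737, 0.591 to 0.914). Ubiquitin E2 and cullin genes had 26 regions, 17 above and 9 below, at 25 of 37 genes, with a median of 0.09 that came to 0.01 by the deposited folds, with 13 above and 13 below. Rbx1, the RING subunit of cullin ligases, had 605 in Brd9KO and 827 in control (1.14, 1.03 to 1.27). Tricarboxylic acid cycle and glycolysis genes had 22 regions, 15 above and 7 below, at 22 of 39 genes, with a median of 0.10. Pdhb, of pyruvate dehydrogenase, had 556 in Brd9KO and 749 in control (1.16, 1.04 to 1.30). Aco1, the cytosolic aconitase that also senses iron, had 527 in Brd9KO and 760 in control (1.08, 0.967 to 1.21).

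BAF complex genes were mostly near or above 1, and the interval lay below 1 at 3 of them. Of 31 genes, 17 had a narrow region, 13 above a ratio of 1 and 4 below, with a median of 0.10. Smarca4, the ATPase BRG1, had 226 reads in Brd9KO and 283 in control (1.25, 1.04 to 1.49). Actl6a, an actin-like subunit, had 391 in Brd9KO and 522 in control (1.17, 1.02 to 1.34). Smarce1, a core subunit of the canonical complexes, had 21 in Brd9KO and 77 in control (0.426, 0.250 to 0.697). Brd7, the bromodomain subunit of the PBAF form, had 43 in Brd9KO and 103 in control (0.652, 0.446 to 0.939). Arid1a, of the canonical BAF form, had 120 in Brd9KO and 235 in control (0.797, 0.635 to 0.998). By the deposited folds the ratio was 0.526 at Smarce1, 0.769 at Brd7 and 0.989 at Arid1a.

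Among blood lineage lists, most erythroid regions had lower summit reads in Brd9KO at equal depth, but not relative to their local background. The lineage lists were also chosen with earlier results of these data known, so they are not independent readouts. The erythroid list holds Kcnn4, which led the low regions above. Of 45 erythroid genes, 15 had 16 narrow regions, 3 above a ratio of 1 and 13 below, with a median log2 ratio of −0.27, medians of 66.5 reads in Brd9KO and 157 in control, and an interval below 1 at 6 regions and above 1 at 1; by the deposited folds the median was 0.04, with 11 above and 5 below. The local background at these regions was lower in Brd9KO at 14 of 16, with a median ratio of 0.778, against 0.955 over all narrow regions. Car2, a carbonic anhydrase, had 100 in Brd9KO and 261 in control (0.598, 0.470 to 0.756). Ermap, a red cell membrane protein, had 63 in Brd9KO and 167 in control (0.589, 0.434 to 0.792). Sptb, the beta spectrin of the membrane skeleton, had 164 in Brd9KO and 328 in control (0.781, 0.643 to 0.945). Cpox, an enzyme of heme synthesis, had 232 in Brd9KO and 431 in control (0.841, 0.714 to 0.988) and Epb41, protein 4.1 of the membrane skeleton, had 198 in Brd9KO and 379 in control (0.816, 0.684 to 0.971), and by the deposited folds both came to 1.04. Nfe2, an erythroid and megakaryocyte transcription factor, went the other way with 306 in Brd9KO and 402 in control (1.19, 1.02 to 1.38). Tfrc, the transferrin receptor, had 208 in Brd9KO and 318 in control (1.02, 0.854 to 1.22). Another 9 erythroid genes had wide regions instead.

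Stem and progenitor genes were divided. Of 39, 13 had 13 narrow regions, 8 above a ratio of 1 and 5 below, with a median of 0.06, and with a median of −0.03, 5 above and 8 below, by the deposited folds. Zfpm1, the GATA partner FOG1, had 799 reads in Brd9KO and 1059 in control (1.18, 1.07 to 1.29). Lyl1, a helix-loop-helix factor, had 283 in Brd9KO and 336 in control (1.32, 1.12 to 1.55). Lmo2, an adaptor of GATA and helix-loop-helix factors, had 20 in Brd9KO and 62 in control (0.504, 0.288 to 0.846). Itga4, the alpha 4 integrin of progenitor homing, had 72 in Brd9KO and 186 in control (0.605, 0.454 to 0.798). Myc had 110 in Brd9KO and 180 in control (0.954, 0.746 to 1.22). Kit, the receptor used for the sort, had a wide region, and Cd34 and Ptprc had no region at a gene end in either list.

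Granulocyte and monocyte genes had weak narrow regions, and their ratios went both ways. Of 25, 11 had 11 narrow regions, 8 above a ratio of 1 and 3 below, with a median log2 ratio of 0.41, medians of 24 reads in Brd9KO and 33 in control, and 0.13 with 7 above and 4 below by the deposited folds. The interval lay above 1 at 3 regions, those of Fes, of Cebpa with 55 in Brd9KO and 55 in control (1.56, 1.05 to 2.31), the factor that commits cells to granulocytes, and of Spi1 with 38 in Brd9KO and 30 in control (1.98, 1.19 to 3.31), the ETS factor PU.1, named after its value was seen. The local background at the 11 regions had a median ratio of 1.15. The list holds Fes, which led the high regions above, and was chosen with earlier results of these data known. Id2 had 43 in Brd9KO and 66 in control (1.02, 0.676 to 1.52). Klf4 had 35 in Brd9KO and 41 in control (1.33, 0.824 to 2.15). A pair of granule protein genes, named after their values were seen, had ratios below 1 with intervals that held 1. Mpo, which encodes myeloperoxidase, had 20 in Brd9KO and 45 in control (0.694, 0.388 to 1.20), and Prtn3, which encodes proteinase 3, had 11 in Brd9KO and 23 in control (0.747, 0.329 to 1.59).

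**Figure D5:**
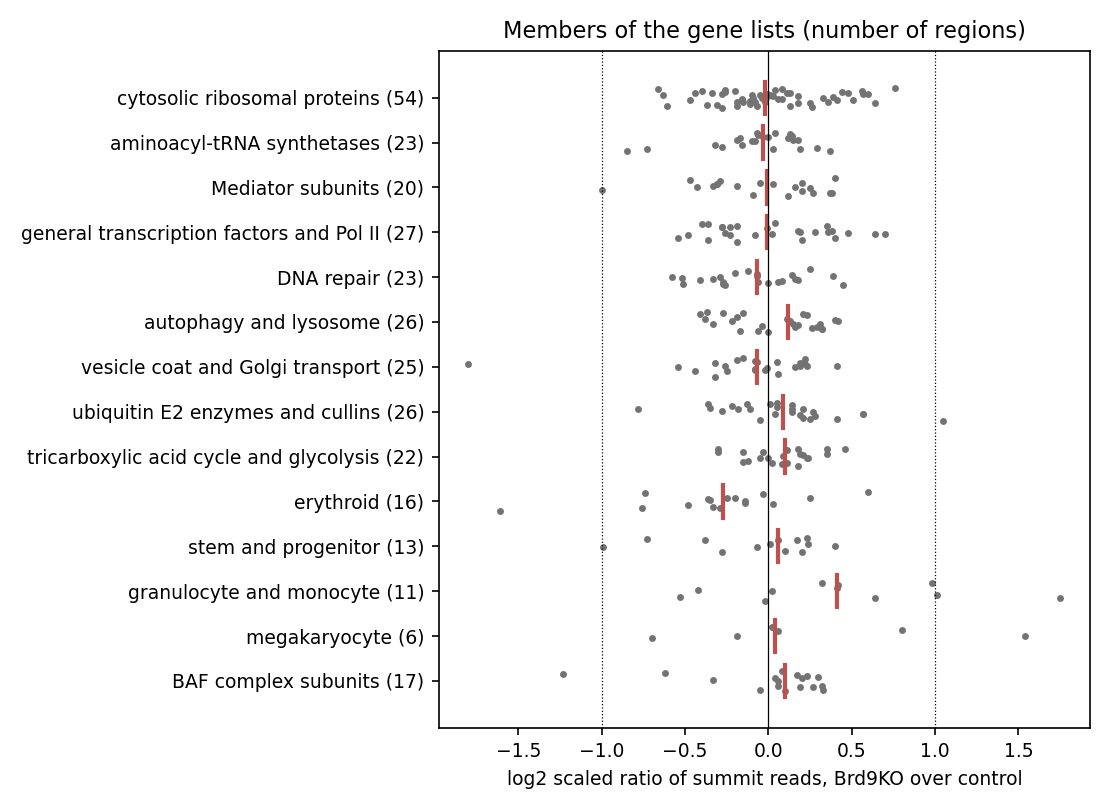
Log2 scaled ratio of summit reads, Brd9KO over control (x), for the narrow regions of the 14 lists with 6 or more regions (rows, with the number of regions); points are regions, red lines medians and dotted lines ratios of 2 and 0.5. The erythroid median lies at −0.27 and the granulocyte and monocyte median at 0.41, while the other medians lie between −0.07 and 0.12. By the deposited folds the erythroid median is 0.04. The lists were chosen with earlier results of these data known.

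The megakaryocyte list had 6 regions at 6 of 18 genes, 4 above a ratio of 1 and 2 below, with a median of 0.04. Its members included Itgb3 with its high ratio, the glycoproteins Gp9 with 78 reads in Brd9KO and 117 in control (1.04, 0.772 to 1.40) and Gp1ba with 28 in Brd9KO and 43 in control (1.02, 0.608 to 1.67), and Treml1 with 17 in Brd9KO and 43 in control (0.617, 0.330 to 1.11). The Gp9 region lay at an outer end of the gene where the promoter table holds no start. The T and NK list had 3 regions at 3 of 20 genes, all above 1. They were Runx3 with 59 in Brd9KO and 55 in control (1.68, 1.14 to 2.46), Notch1, a receptor needed for T cell fate, with 33 in Brd9KO and 28 in control (1.84, 1.08 to 3.16), and Cd3d with 39 in Brd9KO and 48 in control (1.27, 0.810 to 1.98), whose ratio by the deposited folds was 0.894. The Cd3d region lay at the far end of the gene. The B lymphoid list had 3 regions at 3 of 18 genes, the E protein gene Tcf3 with 256 in Brd9KO and 304 in control (1.32, 1.11 to 1.56), Ikzf1, which encodes Ikaros, with 51 in Brd9KO and 97 in control (0.821, 0.573 to 1.16) and Foxo1 with 54 in Brd9KO and 87 in control (0.969, 0.677 to 1.38). The mast cell and basophil list had 1, at Mitf, a factor of mast cells and pigment cells, with 65 in Brd9KO and 87 in control (1.17, 0.833 to 1.63).

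Markers of cells that the sort should have removed were few and weak. Narrow regions were found at 4 of 17 macrophage genes, at 3 of 20 hepatocyte genes, with 7 to 21 reads in Brd9KO and 8 to 26 in control, at 2 of 15 endothelial genes, with 10 to 25 in Brd9KO and 16 to 51 in control, and at 2 of 14 stromal genes, with 12 to 19 in Brd9KO and 16 to 29 in control. The defining hepatocyte genes Alb, Afp and Ttr had no region at a gene end in either list. Mertk, a receptor of macrophages for dying cells, had 21 reads in Brd9KO and 12 in control (2.73, 1.28 to 6.09). Hmox1, which degrades heme, had 15 in Brd9KO and 38 in control (0.616, 0.315 to 1.15). Cx3cr1 had 7 in Brd9KO and 21 in control (0.521, 0.187 to 1.27). The part of such cells in the ratios above was not tested.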

How the data were processed

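The deposited data are 1 narrowPeak list per library, called per sample on mm10. Per the submitters' processing notes, MACS2 2.2.7.1, Bowtie2 2.4.4, deepTools 3.5.1, Trimmomatic 0.39 and Picard 2.26.2 took part, with no role or setting stated. Read extension, duplicate removal and shifting for the transposase are not stated. The score column, as deposited, was left aside. In the deposited lists the fold is a ratio of summit pileup to local background, each with 1 added, and the −log10 of p and q that the authors deposited rest on those same quantities. The lowest −log10 q was 1.32 in the Brd9KO list and 1.31 in the control list.

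A whole number of summit reads that met both deposited values was found for 100% of peaks, with a relative misfit of at most 7.17e-06 in Brd9KO and 7.31e-06 in control. Tested on simulated peaks, the recovery returned 100.0% of 1949 Brd9KO and 100.0% of 1958 control numbers. Absolute depth is unknown. Relative depth was the ratio of the lowest backgrounds, 0.971 reads in Brd9KO and 1.52 in control, which assumes that reads were extended alike. Shared regions with over 3000 reads, 2 of 18023, were left out of ratios. Intervals for ratios are exact conditional binomial.

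Gene ends came from RefSeq GRCm38.p6, whose coordinates are those of mm10, and starts and sequences from its promoter table. Of 651 list entries, 650 were in the gene table. The members and the 21 lists were chosen with earlier results of these data known. Named were the 12 regions with the highest lower bound and the 12 with the lowest upper bound of the ratio's interval, the 6 with the most reads, the 5 narrowest, 3 on each side of the width limit, up to 4 of each list by reads, erythroid, stem and BAF members whose interval left out 1, and 4 at each end of summit distance and peak width ratio. Some regions that met this rule are not reported here. Promoters were printed for the first 10 with their start inside the region and the control summit within 250 bp, a condition added after the data were seen, with candidates taken in turn from the high and the low end; 6 high and 4 low ones met it. SciPy 1.17.1, pandas 2.3.3, NumPy 2.4.6 and matplotlib 3.10.9 were run under Python 3.11.15. Alternatives were other depth scales, the deposited folds, and other limits on width, gene-end distance, reads, q and overlap.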

Additional observations from a re-analysis of the deposited data

How the results depend on the processing

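With a width limit of 1000 bp there were 3611 narrow regions in place of 6588, with a median log2 ratio of 0.04 in place of 0.02 and 25 at a ratio of 0.5 or less in place of 40. With at least 50 reads in both lists together the median was 0.01 and 24 regions reached 2 or more in place of 83. By the ratio of the deposited folds the median was 0.00, with 4 at 2 or more and 10 at 0.5 or less, and of 126 named regions 96 stayed within their interval, 26 moved out of it, and 4 whose interval had left out 1 turned round, to 1.03 at Mars1, 1.04 at Cpox, 1.04 at Epb41 and 0.999 at Lars2; this scale divides by the local background, which moved with the summit. Under the other 2 depth scales, 0.639 and 0.642, all 126 stayed within their interval. Motif shares in the shorter window, from 100 bases before the start, moved for 11 of 12 motifs, as fewer bases were searched. No paired analysis was possible because the 2 libraries share no replicate number, and with 1 library per genotype none could be left out. Ratios at regions with few reads are limited by depth: in the 1318 least accessible regions the log2 ratios had an SD of 0.52, and 0.49 is what counting alone gives.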

Other observations

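The group of 1287 narrow regions whose genes had no start in the promoter table had medians of 51 summit reads in Brd9KO and 79 in control, between those at starts and those at far ends. At narrow regions with a GATA site near the start the medians were 55.5 reads in Brd9KO and 87.5 in control.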
